A study of Mus musculus with 2 samples.

Results

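The simple epithelial keratins Krt7, Krt8, Krt18, Krt19 and Krt20 were described in organoids of normal mouse urothelium, the lining of the bladder. The 5 genes were taken by symbol from the 31053 gene identifiers listed, and they belong to the 53 keratin genes of type I and type II found there (28 of type I and 25 of type II). Krt7 and Krt8 are of type II, and Krt18, Krt19 and Krt20 are of type I. Both groups came from WT mice of the C57BL/6 strain aged 8 to 10 weeks and their cells were sequenced singly in droplets, from the 3′ end of transcripts. Proliferative organoids (NMU-O-P, P) stayed in complete medium, which contains EGF, WNT3A, RSPO1, Noggin and the TGF-β receptor inhibitor LY2157299. Differentiated organoids (NMU-O-D, D) were moved from complete medium to one without these 5 factors. With 1 library per group, differences between groups cannot be set against a spread of replicates, and p-values and standard errors are not given. Organoids are cultured epithelium without the bladder wall, stroma or blood supply.

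Keratins are the intermediate filaments of epithelial cells. A filament is built from pairs of a type I and a type II chain, and a chain without a partner is unstable. Simple keratins are those of single-layered and glandular epithelia. In the urothelium, basal cells carry Krt5 and Krt14, the simple keratins Krt7, Krt8, Krt18 and Krt19 occur in several layers, and Krt20 is a marker of the superficial umbrella cells, which also make the uroplakins, membrane proteins of the urothelial plaque.

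The kept cells numbered 6818 of 8194 barcodes in P and 4896 of 6975 in D, each with over 800 genes and at most 12% mitochondrial UMIs. A UMI (unique molecular identifier) stands for 1 captured RNA molecule. The kept cells of P held 26681469 UMIs (median 3405.5 per cell) and those of D 20305621 (median 3227.5), and 6 kept barcodes occurred in both libraries. Levels are UMIs per 1000000 UMIs of the library (CPM) with exact Poisson 95% intervals, and all intervals cover counting error only. Of the UMIs of P 36.6% came from ribosomal protein genes, and of those of D 20.8%. The median log2 ratio (D over P) was 0.42 over the 8939 genes that reached 100 UMIs in both libraries, so a ratio of that size is where the median gene lies. The epithelial marker Epcam had 8495 UMIs in P against 9558 in D, and Cdh1 had 3084 against 5999. Markers of other cells were summed by list. The 6 fibroblast markers came to 53 UMIs in P and 1270 in D, of which Dcn gave 40 and 1234, while Col1a1 had 0 and 10, Col3a1 0 and 19 and Col1a2 0 in both. The 6 leukocyte markers came to 10 and 402, of which Laptm5 gave 7 and 400 and Ptprc 1 and 2. The 5 endothelial markers came to 147 and 69, mainly Pecam1 (60 and 50) and Egfl7 (78 and 17), with Cdh5 and Kdr at 0 in both. The 5 mesothelial markers came to 2157 and 4192, mainly Msln (1969 and 3778), with Wt1 and Lrrn4 at 1 and 0. The summed markers of Merkel cells, which carry Krt8, Krt18 and Krt20 in skin, came to 12 and 14 UMIs. The early response genes that dissociation can induce summed to 1520 CPM in P and 3162 CPM in D, a difference whose part in the results was not tested except where cells low in these genes are given.

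On the genome (GRCm38, the build of the authors' alignment, with GENCODE coordinates), Krt7 (ENSMUSG00000023039) lies on the plus strand of chromosome 15 from 101411043 to 101430313. Krt8 (ENSMUSG00000049382) lies on the minus strand of chromosome 15 from 101996698 to 102004482, and Krt18 (ENSMUSG00000023043) on the plus strand from 102028180 to 102032027. Krt8 and Krt18 are therefore neighbours that point away from each other, with 23697 bases and 0 protein-coding genes between them. Krt18 is thus a type I gene within the type II cluster. Krt19 (ENSMUSG00000020911) and Krt20 (ENSMUSG00000035775) lie on the minus strand of chromosome 11, from 100140810 to 100148665 and from 99428403 to 99438150. The annotated gene Gm36026 overlaps Krt8, and Gm671 overlaps Krt7. A processed pseudogene, Krt8-ps, lies on chromosome 7 from 23357125 to 23358069, so UMIs from stretches near-identical in Krt8 and Krt8-ps could not be told apart here.

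RefSeq promoter windows (250 bases before to 50 after the start, GRCm38.p6) were at hand for 4 of the 5 members, Krt7, Krt8, Krt18 and Krt20. The stretches of the Krt8 and Krt18 windows that lie before the first annotated exon are shown because these neighbours form the classical pair and are the members whose levels in D differed most with uroplakin count. They are chr15:102004483-102004592 on the minus strand and chr15:102027966-102028179 on the plus strand, read 5′ to 3′, with capitals for motif matches.
Krt8: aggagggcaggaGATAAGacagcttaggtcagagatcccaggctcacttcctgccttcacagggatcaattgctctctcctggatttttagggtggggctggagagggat
Krt18: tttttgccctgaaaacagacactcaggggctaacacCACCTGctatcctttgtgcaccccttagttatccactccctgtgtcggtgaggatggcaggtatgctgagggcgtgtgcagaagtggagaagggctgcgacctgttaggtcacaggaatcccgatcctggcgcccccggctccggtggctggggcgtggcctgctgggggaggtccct
Each motif was searched on both strands of the whole 300-base windows. The GATA motif GATAAG matched once in Krt8 and in no other member's window, against 7.44% of all 32851 promoter windows. The E-box CACCTG matched once each in Krt7, Krt8 and Krt18, against 20.2% of all windows. The GC box GGGCGG had 4 matches in Krt7 and none in the other 3, against 35.7% of windows, and the TATA box TATAAA had 2 matches in Krt8 and 1 in Krt20, against 13.6%. The AP-1 motif TGANTCA, the FOX motif TGTTTAC and the ETS motif CCGGAAG had no match in the 4 windows. The TATA box and E-box matches of Krt8 lie outside the stretch shown, in the part of its window within the annotated gene. A match is a string of letters in the window and not evidence of a bound factor.

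To see how the simple keratins differed between proliferative and differentiated organoids, their summed levels were compared between the libraries. Krt8, the type II partner of Krt18, was counted at 174 CPM in P (interval 170 to 179, 4654 UMIs) and 1338 CPM in D (1322 to 1354, 27172 UMIs). It was 7.67-fold higher in D (7.44 to 7.92), a log2 ratio of 2.94, or 2.52 above the median gene. Krt18, its type I partner, was at 415 CPM in P (11063 UMIs) and 735 CPM in D (14926 UMIs), 1.77-fold higher in D (1.73 to 1.82) and 0.40 above the median gene on the log2 scale. The partners thus differed from each other in their ratios by far more than the counting error.

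Krt19, the smallest keratin, which lacks the tail domain, gave the most UMIs of the members in both libraries. It was at 2764 CPM in P (73751 UMIs) and 4716 CPM in D (95769 UMIs), 1.71-fold higher in D (1.69 to 1.72) and 0.35 above the median gene on the log2 scale. Krt7, the type II keratin typical of ductal and transitional epithelia, was at 1338 CPM in P (35710 UMIs) and 1541 CPM in D (31295 UMIs), a log2 ratio of 0.20 (0.18 to 0.23). Relative to the median gene the direction turned, at -0.22 (-0.24 to -0.20), so no direction is read for Krt7. Krt20, with 8 UMIs in P against 3 in D, was counted too rarely for a difference to be seen (log2 ratio -1.02, -3.57 to 1.04).

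**Figure D1:**
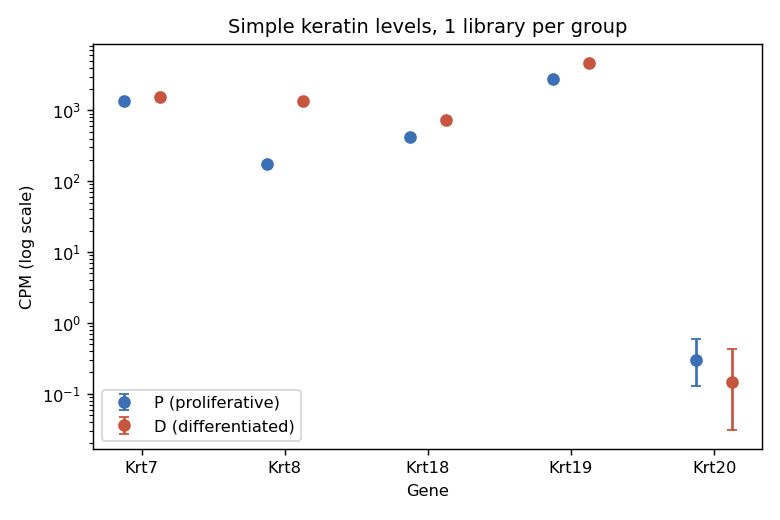
Levels of the 5 simple keratins in CPM (log axis) in the P library (blue) and the D library (red), with exact Poisson 95% intervals, which are smaller than the points except for Krt20. Krt8 stands 7.67-fold higher in D, and Krt20 lies under 1 CPM in both libraries.

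Of the 4 members with at least 100 UMIs over both libraries, 1 (Krt8) was higher in D by at least 2-fold and 0 were lower by as much. Over all 10719 genes with as many UMIs, 13.5% were higher in D by that rule and 4.73% higher in P. After the median shift was removed Krt8 still passed, and the shares over all genes were 5.64% and 8.65%. The median log2 ratio of the 4 members was 0.80, beside 0.41 over all genes tested. Among the 20 keratins with at least 100 UMIs the ratio of Krt8 was the highest. Next came Krt4 at 3.90-fold, Krt15 at 3.63-fold and Krt16 at 3.43-fold, and Krt18 and Krt19 followed behind Krt1 and Krt14. At the other end, Krt13, the type I partner of Krt4, was at 0.0561 of its P level in D, and Krt6b at 0.0339; UMIs of Krt6a and Krt6b, which are near-identical, may not be fully separated.

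**Figure D2:**
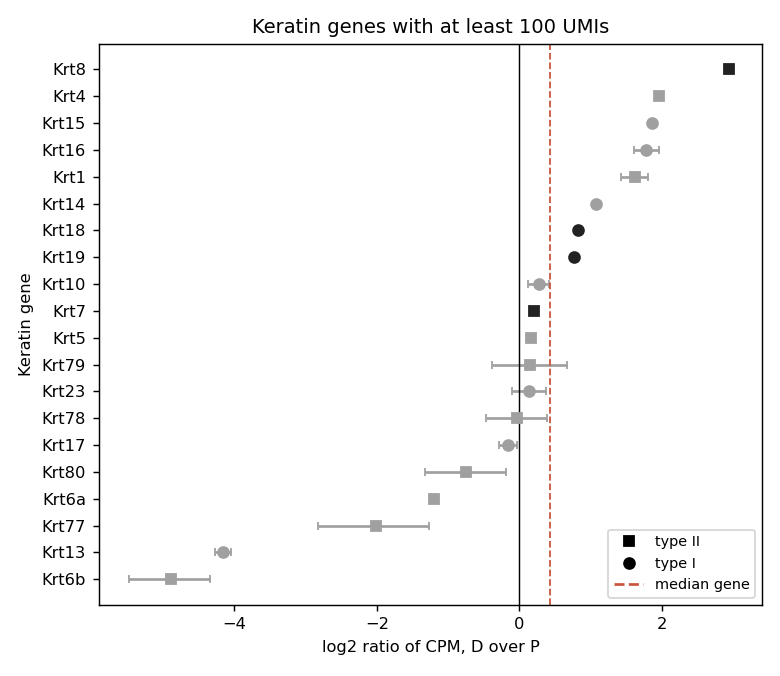
Log2 ratio of CPM (D over P) of the 20 keratin genes with at least 100 UMIs, with counting intervals; squares are type II, circles type I, black symbols the simple keratins and the dashed line the median gene at 0.42. Krt8 has the highest ratio at 2.94, while Krt7 lies between 0 and the median gene.

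As a share of all keratin UMIs, the members took 34.4% in P (34.2 to 34.5%) and 33.1% in D (33.0 to 33.2%). Keratins of type I and II together made up 1.37% of the UMIs of P and 2.52% of those of D, so keratins as a whole took more of the RNA counted in D, while the simple keratins' part of them was nearly the same. Within each type the parts differed more. The members took 25.2% of type II UMIs in P and 34.1% in D, and 41.5% of type I UMIs in P and 32.6% in D. Krt8 took 2.91% of type II UMIs in P and 15.8% in D, whereas Krt7 took 22.3% and 18.2%. On the type I side Krt19 took 36.1% and 28.2%, and Krt18 5.41% and 4.40%. Krt15, at 2025 CPM in P and 7344 CPM in D, took up much of the type I total in D.

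To compare cells at equal depth, each cell was thinned to 2100 UMIs, which left 6638 cells in P and 4417 in D (180 and 479 were shallower). Krt8 was found in 23.1% of thinned cells in P (22.1 to 24.1%) and 77.0% in D (75.8 to 78.3%). Krt18 was found in 50.5% in P and 53.9% in D, so its share of cells differed little while its level was higher. Unthinned, the order for Krt18 was the other way, at 65.9% of cells in P and 62.5% in D, and for Krt8 the shares were 35.5% and 82.5%. The highest Krt18 count in a thinned cell was 8 UMIs in P and 53 in D, and 58 cells in D (1.31%) but 0 in P held at least 10. The variance of Krt18 over thinned cells was 1.32 times its mean in P and 4.31 times in D, where random sampling alone gives 1. Its mean was 0.812 UMIs per cell in P and 1.40 in D. For Krt8 the ratio was 1.63 in P and 4.36 in D, at means of 0.323 and 2.61 UMIs per cell. This ratio also rises with the mean, so for Krt8 it does not show which library was more uneven.

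Krt19 and Krt7 were found in most cells. Krt7 was found in 85.5% of thinned cells in P and 92.8% in D, with a variance of 2.26 and 1.54 times the mean, so that Krt7 counts were more even over cells in D. Krt19 was found in 80.2% and 92.2%. Its median was 4 UMIs per thinned cell in P and 10 in D, with a variance of 5.19 and 4.50 times the mean. At least 10 Krt19 UMIs were held by 20.4% of thinned P cells and 52.6% of D cells.
All 4 of Krt7, Krt8, Krt18 and Krt19 were found in 11.5% of thinned P cells and 42.3% of D cells. None of them was found in 136 P cells (2.05%) and 6 D cells (0.136%). Keratins of both types were found in 6630 of the 6638 P cells and 4416 of the 4417 D cells.

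The levels were then set against the uroplakin count per cell, the sum of Upk1a, Upk1b, Upk2, Upk3a and Upk3b UMIs after thinning. In D, 2061 cells had 0 uroplakin UMIs, 798 had 1, 924 had 2 to 4, 383 had 5 to 9 and 251 had 10 or more. Krt18 in these cells was at 276, 520, 786, 1407 and 2770 CPM. Krt8 was at 661, 1058, 1484, 2382 and 3942 CPM. Both therefore stood higher in every step up the uroplakin count, with counting intervals that did not overlap. Krt19 was at 3231, 5161, 6139, 6326 and 7380 CPM, with most of its difference between the cells with 0 and those with 2 to 4 uroplakin UMIs. Krt7 was at 1610, 1428, 1334, 1455 and 1723 CPM, lowest in the middle of the range and close at both ends.

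In cells of D with at least 5 uroplakin UMIs (634 cells) against those with 0, Krt18 was 7.06-fold higher (6.59 to 7.56), at rank 12 of the 6040 genes, uroplakins left out, that reached 100 UMIs over both sets of cells. Krt8 was 4.54-fold higher (4.32 to 4.76, rank 39) and Krt19 2.09-fold higher (2.03 to 2.14, rank 204). Krt7 had a log2 ratio of -0.05 (-0.12 to 0.03) at rank 2849, where the median of all genes was -0.08. Thus 3 of the 4 members were at least 2-fold higher in uroplakin-rich cells, where 3.79% of all genes were at least 2-fold higher and 5.84% at least 2-fold lower. The basal keratins Krt14 and Krt5 had log2 ratios of -3.66 and -1.51 in the same cells, Krt15 had 0.00 and Krt4 had 1.29. The uroplakin-rich cells were deeper before thinning, with a median of 4437 UMIs at 10 or more uroplakin UMIs and 3032 at 0. Their early response genes summed to 1702 CPM, against 3385 CPM at 0. The part of depth and of the early response in these ratios was not tested.

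In P, uroplakin UMIs were rare: 6459 thinned cells had 0, 138 had 1, 37 had 2 to 4 and 4 had 5 to 9. Krt8 was at 144, 373 and 837 CPM in the first 3 of these bins. Krt18 was at 380, 583 and 759 CPM, Krt19 at 2442, 3720 and 4556 CPM and Krt7 at 1291, 1832 and 1943 CPM. All 4 were higher in the 179 cells with at least 1 uroplakin UMI than in cells with 0. The log2 ratios were 1.84 for Krt8 (1.62 to 2.06, rank 44 of 7907 genes), 0.76 for Krt18, 0.67 for Krt19 and 0.53 for Krt7 (0.42 to 0.64). One of the 4, Krt8, was at least 2-fold higher, where 5.62% of all genes were. Markers of squamous differentiation summed to 233 CPM at 0 uroplakin UMIs, 587 at 1 and 1338 at 2 to 4 in P. Over the uroplakin bins of D they summed to 190, 269, 432, 572 and 634 CPM. Krt7 itself differed with those markers, from 1249 CPM in the 4900 P cells with 0 squamous UMIs to 3081 CPM in the 34 cells with 10 or more. Whether the squamous cells account for the Krt7 values of uroplakin-positive P cells was not tested. In D, Krt8 was at 958 CPM in cells with 0 squamous UMIs and 3788 CPM in those with 5 to 9. Krt18 was at 474 and 2201 CPM in the same D cells. The part of this overlap in the uroplakin bins of D was not tested either.

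**Figure D3:**
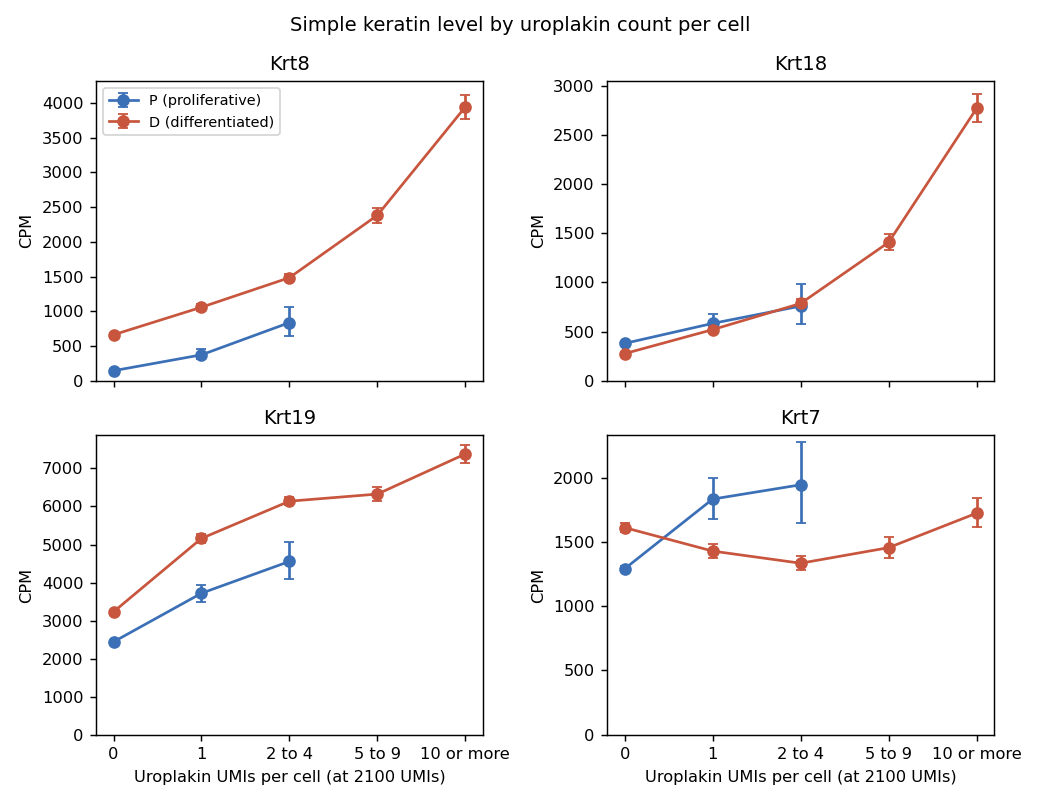
CPM of Krt8, Krt18, Krt19 and Krt7 by uroplakin UMIs per cell in P (blue) and D (red), for bins of at least 20 thinned cells, with exact Poisson 95% intervals. Krt8 lies higher in D than in P in each shared bin, Krt18 is lower in D at 0 uroplakin UMIs, has overlapping intervals at 1 and at 2 to 4, and reaches 2770 CPM at 10 or more in D, and Krt7 stays between 1334 and 1723 CPM in D.

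At equal uroplakin count the members of the Krt8 and Krt18 pair differed between libraries in different ways. In cells with 0 uroplakin UMIs, Krt8 was at 144 CPM in P and 661 CPM in D, a log2 ratio of 2.20 (2.12 to 2.28). In the same cells Krt18 was at 380 CPM in P and 276 CPM in D, a log2 ratio of -0.46 (-0.55 to -0.37), the opposite direction to that of the whole libraries. Early response genes summed to 1483 CPM in these cells of P and 3385 CPM in those of D. The part of this difference in the Krt18 ratio was not tested. With 1 uroplakin UMI the log2 ratios were 1.51 for Krt8 and -0.17 for Krt18 (-0.41 to 0.08). With 2 to 4 they were 0.83 for Krt8 and 0.05 for Krt18 (-0.33 to 0.45). At equal summed uroplakin count Krt18 was thus not detectably higher in D in any of these 3 bins, whereas Krt8 was higher in each. The uroplakins behind that sum differed by library. Over all kept cells of P, Upk1a stood at 12.3 CPM, Upk1b at 6.78 CPM and Upk3a at 0.150 CPM. For D the levels were 477, 377 and 339 CPM in that order. Cells with the same count above 0 can therefore carry different uroplakins and need not be in the same state. Krt19 had log2 ratios of 0.40, 0.47 and 0.43 in these 3 bins, about the 0.42 of the median gene over all kept cells. Krt7 had 0.32, -0.36 and -0.54. The bin of 5 to 9 uroplakin UMIs held 4 P cells, too few to compare. Krt8 was there at 2500 CPM in P (1548 to 3822) and 2382 CPM in D.

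The cells were also ordered by hemidesmosome genes (Itga6, Itgb4, Itga3, Col17a1, Trp63, Lama3 and Lamb3), which anchor basal cells to the basement membrane or, for Trp63, mark them. These genes differed between the libraries themselves. Lamb3 was 3.85-fold and Lama3 2.56-fold higher in D, Trp63 and Itga3 were at 0.521 and 0.656 of their P levels, and the others lay between. An equal count can thus rest on different genes in P and D. Among uroplakin-0 cells with at least 5 hemidesmosome UMIs (460 in P and 301 in D), Krt8 was at 82.8 CPM in P and 527 CPM in D, a log2 ratio of 2.67 (2.31 to 3.04). In the same cells Krt18 was at 208 CPM in P and 133 CPM in D (log2 ratio -0.65, -1.03 to -0.27). Krt19 was at 913 and 1174 CPM and Krt7 at 1433 and 1930 CPM. Among all thinned cells, Krt19 was at 3825 CPM in P cells with 0 hemidesmosome UMIs and 903 CPM in those with 5 to 9, and at 6148 and 1318 CPM in D. Krt18 was at 490 and 210.0 CPM in P and at 1021 and 152 CPM in D. Krt7 had no such order in P, with 1445 and 1421 CPM, and the opposite one in D, with 1391 and 1903 CPM. No set of keratin-free cells was defined in either library, so a share set by free RNA in the droplets was not measured. In the D cells with 5 to 9 hemidesmosome UMIs, Krt8 was still found in 56.3% and Krt18 in 22.6% of cells, at a median depth of 2970 UMIs before thinning.

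Pairing was described as UMIs of the type II member per UMI of the type I partner. The 3′ method counts each molecule once whatever its length, but genes can differ in capture, so differences of a ratio between groups are read and not its size. There were 0.421 UMIs of Krt8 per UMI of Krt18 in P (0.406 to 0.435) and 1.82 in D (1.78 to 1.86), a log2 difference of 2.11 (2.06 to 2.17) that does not depend on how the libraries are scaled. In thinned cells with at most 2 early response UMIs (3274 in P and 844 in D) the log2 difference was 2.22, and without the 5% of cells with the highest doublet score it was within the counting error of the value over all kept cells. Over the uroplakin bins of D the ratio was 2.40, 2.04, 1.89, 1.69 and 1.42. In P it was 0.379, 0.639 and 1.10 in cells with 0, 1 and 2 to 4 uroplakin UMIs. The ratio was therefore higher with more uroplakin in P and lower with more uroplakin in D. Among bins with at least 20 cells in both libraries, the libraries were closest in the bin of 2 to 4. The counting intervals of that bin, 0.762 to 1.59 in P and 1.77 to 2.01 in D, did not overlap.

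**Figure D4:**
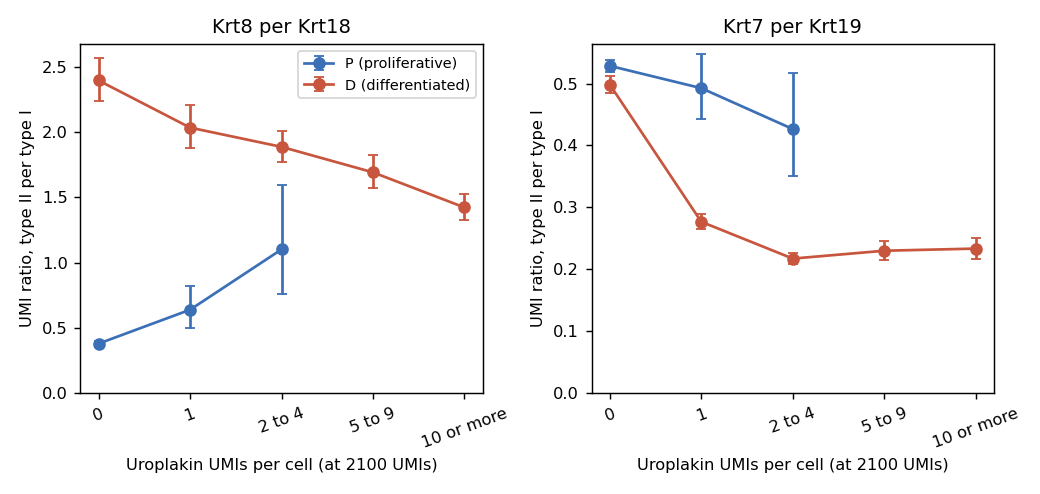
UMIs of the type II keratin per UMI of the type I keratin by uroplakin UMIs per cell, for Krt8 per Krt18 (left) and Krt7 per Krt19 (right), in P (blue) and D (red) with counting intervals. Krt8 per Krt18 goes from 2.40 to 1.42 in D and from 0.379 to 1.10 in P, and Krt7 per Krt19 in D is 0.498 at 0 uroplakin UMIs and between 0.217 and 0.277 in the other bins.

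Other combinations of the members had their own pattern. Krt7 per Krt19 was 0.484 in P and 0.327 in D, and in D it was 0.498 in uroplakin-0 cells and 0.233 in cells with 10 or more uroplakin UMIs. Krt7 per Krt18 went from 5.84 to 0.622 over the same D bins. Krt8 per Krt19 was 0.0631 in P and 0.284 in D. For the basal pair, Krt5 per Krt14 was 1.98 in P and 1.06 in D. Added over the members, type I UMIs per type II UMI came to 2.10 in P and 1.89 in D, whereas over all keratins they came to 1.28 and 1.98.

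Within cells, Krt8 and Krt18 were found together more than apart in D. Of 4417 thinned D cells, 2069 held both, 1333 held Krt8 without Krt18, 312 held Krt18 without Krt8 and 703 held neither. In P more cells held the type I partner alone. Of 6638 cells, 969 held both, 562 held Krt8 without Krt18, 2386 held Krt18 without Krt8 and 2721 held neither. Krt18 was found in 60.8% of D cells with Krt8 (59.2 to 62.5%) and 30.7% of those without it (27.9 to 33.7%). In P these shares were 63.3% and 46.7%. Since a keratin at a low level is missed in many cells at 2100 UMIs, a cell without a UMI is not a cell without the transcript.
Krt18 in D was at 239, 368, 616, 1180 and 3791 CPM in cells with 0, 1, 2 to 4, 5 to 9 and 10 or more Krt8 UMIs. In P it was at 344, 490 and 620 CPM in the first 3 of these bins, and the next held 14 cells.

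**Figure D5:**
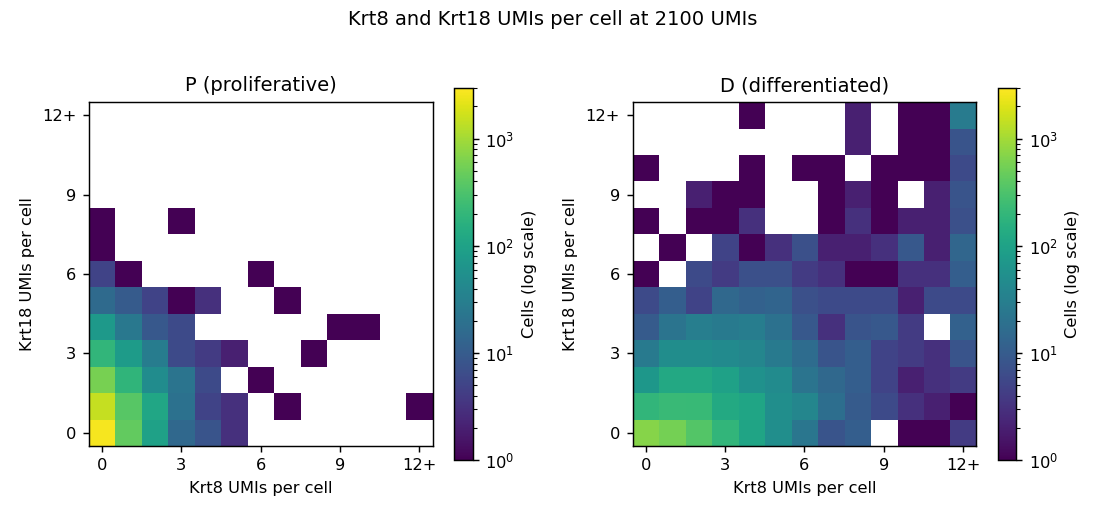
Thinned cells by Krt8 UMIs (horizontal axis) and Krt18 UMIs (vertical axis) in P (left) and D (right), with counts of 12 or more drawn at 12+ and colour for the number of cells on a log scale. P cells lie along the lower left with up to 8 Krt18 UMIs, and D cells extend to high counts of both genes, with a maximum of 41 Krt8 and 53 Krt18 UMIs.

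Over the thinned cells of D, which share 1 library and 1 depth, Pearson's r of log counts was 0.51 between Krt8 and Krt18, and over those of P it was 0.18. In D it was 0.27 in uroplakin-0 cells and 0.49 in cells with at least 1 uroplakin UMI. Krt19 had r = 0.38 with Krt8 and 0.39 with Krt18 in D, and 0.24 and 0.25 in P. Krt7 had r = 0.03 with Krt8, 0.01 with Krt18 and -0.08 with Krt19 in D, and 0.08, 0.03 and 0.16 in P. Between Krt7 and Krt19 it was -0.13 in the uroplakin-0 cells of D. These are descriptions over cells that are not independent replicates, and weak values in sparse counts are no finding. Among 4877 genes found in at least 5% of thinned D cells, those outside the members most like Krt18 were Akr1b3 (r = 0.52), Upk1b (0.50), S100a6 (0.47), Nupr1 (0.45) and Psca (0.44). The same 5 genes led for Krt8, with Akr1b3 at 0.50, S100a6 at 0.48, Upk1b at 0.47, Nupr1 at 0.47 and Psca at 0.46. For Krt19 they were Gsta4 (0.68), Nupr1 (0.51), Psca (0.50), Krt4 (0.50) and Gstm1 (0.49), and Gsta4 had r = 0.65 with Krt19 in P. For Krt7 the highest was Krt14 at 0.19, followed by Sfn, S100a10, Actb and Tpm1 at 0.13 to 0.16.

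Krt20 UMIs were too few to give a level per cell class. The 8 UMIs of P lay in 8 cells (0.117% of kept cells, 0.0507 to 0.231%), 0 of which held a uroplakin UMI and 4 of which held Krt8. Before thinning, 303 kept P cells (4.44%) held a uroplakin UMI and 35.5% held Krt8, so 8 cells say little about either. The 3 UMIs of D lay in 2 cells (0.0408%, 0.00495 to 0.147%), which held 7 and 69 uroplakin UMIs before thinning and both held Krt8. Uroplakin UMIs were found before thinning in 2849 kept D cells (58.2%), and Krt8 in 82.5%. Krt20 was thus detected in 2 of the uroplakin-positive D cells, and more cells with Krt20 below this depth remain possible.

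In cycling cells of P (306 thinned cells with at least 2 of 12 cell cycle genes) Krt19 was at 735 CPM against 2566 CPM in the other P cells, a log2 ratio of -1.80 (-1.94 to -1.67). Krt7 had -0.40 and Krt18 -0.33 in the same comparison, and Krt8 had -0.13 with an interval that spans 0 (-0.45 to 0.18). D held 13 such cells, too few to compare.

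Of the 17 genes for proteins that link, modify or protect keratin filaments, all had at least 100 UMIs, 2 were higher in D by at least 2-fold and 0 were higher in P, beside the 13.5% and 4.73% over all genes. The 2 were Pkp2, a desmosomal plaque protein with 15 UMIs in P and 114 in D, and Plec, the linker plectin, at 77.1 CPM in P and 159 CPM in D. After the median shift was removed 1 of them passed, Pkp2, with Plec at 0.63 on the log2 scale. The median log2 ratio of the 17 was 0.39, about that of the median gene. Dsp, the desmosomal protein that binds keratin filaments, was at 326 CPM in P and 363 CPM in D, and Hspb1, a small heat shock protein, at 1218 and 937 CPM. By the same rule, 3 of the 7 keratins listed as basal were higher in D (Krt14, Krt15 and Krt16). Higher in P were 2 of them, Krt6a and Krt6b. Without the shift Krt14 no longer passed, at 0.65, which left 2 higher in D. Not all of this list followed the hemidesmosome genes. Between P cells with 0 and with 5 to 9 hemidesmosome UMIs, Krt14 went from 825 to 4112 CPM, but Krt6a from 783 to 89.1 CPM. In D, Krt15 was at 8278 and 4428 CPM in the same bins. Of the 7 suprabasal keratins with at least 100 UMIs, of 9 listed, 2 were higher in D (Krt4 and Krt1) and 1 higher in P (Krt13), and without the shift Krt80 also passed as higher in P, at -1.17.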

How the data were processed

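The authors demultiplexed and aligned the reads to the GRCm38/mm10 transcriptome; the submitters' processing notes name bcl2fastq 2.19.0 and Cell Ranger 3.0.2. The deposited matrices hold raw UMI counts per gene and barcode, whole numbers with no normalization, and both matrices were used in full. Cells with over 800 genes and at most 12% mitochondrial UMIs were kept, the filter as the study words it. In P this leaves 6818 cells, and a minimum of at least 800 genes 6826, the number the study gives; in D both leave 4896. UMIs were summed over kept cells and scaled to CPM in Python 3.11.15 with numpy 2.4.6, scipy 1.17.1 and pandas 2.3.3; levels have exact Poisson, shares exact binomial (Clopper-Pearson) and ratios exact conditional binomial 95% intervals, and the ratio of 2 ratios a normal interval on the log scale. For bins, cells were thinned without replacement to 2100 UMIs. Doublets were kept; an alternative left out the 5% of cells with the highest score against simulated doublets (scikit-learn 1.9.0). With 1 library per group no test was run, and called means at least 2-fold apart with at least 100 UMIs. A count of 0 allows 3 UMIs, or 0.112 CPM in P and 0.148 CPM in D. The scripts were checked on simulated data. Named genes were the 5 members, the uroplakins, listed genes at least 2-fold apart or known partners, and the 5 genes most like each member; other listed genes given as controls (Dsp, Hspb1, marker genes) were named after their values had been seen. The members and lists were chosen with earlier results of these data known. Alternatives covered scaling, averaging over cells, cell filters, doublets, thinning depth, bins and cell composition. Some genes of the marker lists are not reported here, and the lists were used without them.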

Additional observations from a re-analysis of the deposited data

Results flagged for a closer look

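Signal of the members was also present in barcodes that the filter left out, 1376 in P and 2079 in D. Per 1000000 non-mitochondrial UMIs, the left-out D barcodes held 986 UMIs of Krt8, 412 of Krt18 and 3168 of Krt19, above the 144, 356 and 1547 of the left-out P barcodes and below the 1441, 792 and 5079 of the kept D cells. These barcodes enter no comparison of the libraries.

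Krt7 differed with uroplakin in opposite directions in the 2 libraries when all cells with any uroplakin UMI were pooled. The log2 ratio of cells with at least 1 uroplakin UMI over cells with 0 was 0.53 in P and -0.17 in D. In D the direction did not hold at higher counts, with -0.05 (-0.12 to 0.03) for at least 5 uroplakin UMIs over 0 and 0.10 for at least 10. With 1 library each, the difference between these ratios was not tested.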

How the results depend on the processing

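Of 69 alternatives, 30 kept their value (within the counting interval, or the same count of genes), 36 moved beyond it and 3 turned the direction of a value whose interval excluded 0. Krt7 turned to -0.12 with mitochondrial and ribosomal protein genes left out of the total and to -0.22 with scaling by the median ratio, and Krt18 (D over P) turned to -0.46 in uroplakin-0 cells. Under the same 2 scalings the D over P log2 ratios were 2.61 and 2.52 for Krt8, 0.50 and 0.40 for Krt18, and 0.44 and 0.35 for Krt19. As a mean over cells they were 0.24 for Krt7, 0.68 for Krt18 and 0.88 for Krt19. Krt19 was at 0.80 with a filter of over 500 genes and at most 20% mitochondrial UMIs, 0.66 with over 1000 genes and at most 10%, and 0.71 without cycling cells; Krt8 was at 2.86 with the stricter filter. Without the highest doublet scores the ratios were 3.01 for Krt8, 0.89 for Krt18 and 0.84 for Krt19. In uroplakin-0 cells they were 0.32 for Krt7, 2.20 for Krt8 and 0.40 for Krt19. In cells with at most 2 early response UMIs, an alternative chosen after seeing the data, they were 0.28, 3.59, 1.37 and 1.04 for Krt7, Krt8, Krt18 and Krt19.

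For uroplakin-rich against uroplakin-0 cells of D, thinning to 3000 UMIs gave 2.002 for Krt8 and 2.51 for Krt18, and thinning to 1500 gave 0.048 for Krt7, a change of sign for a value of -0.05 whose interval spans 0. A bin of at least 10 uroplakin UMIs gave 0.10 for Krt7, also with the other sign, 2.58 for Krt8, 3.33 for Krt18 and 1.19 for Krt19. Krt19 was at 1.13 without the highest doublet scores and 1.12 with the stricter filter. The log2 difference of Krt8 per Krt18 was 2.05 with the stricter filter, 2.25 as a mean over cells and, chosen after seeing the data, 2.66 in uroplakin-0 cells and 2.22 in cells low in early response genes. The cause of these movements was not tested. The count of simple keratins at least 2-fold higher in D stayed at 1 under each of its alternatives. No paired analysis was possible because each group has 1 library. The depth limits Krt20, with 8 and 3 UMIs.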
